A study of Mus musculus with 17 samples.

Results

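Glucose enters heart muscle through facilitative transporters, is trapped by hexokinase as glucose-6-phosphate and is broken down by glycolysis to pyruvate. Lactate dehydrogenase then interconverts pyruvate and lactate, and monocarboxylate transporters carry lactate across the plasma membrane. Most of these steps exist in several gene versions: the adult cardiomyocyte is known for the insulin-responsive transporter GLUT4, hexokinase 2 and the heart-type lactate dehydrogenase subunit, whereas many other cells use GLUT1, the muscle-type subunit and the transporter MCT4.

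Transcript levels of 10 genes of these steps were followed from the healthy left ventricle (LV) to the infarct zone (IZ). They were chosen by gene symbol and are Slc2a1 and Slc2a4 (glucose transporters GLUT1 and GLUT4), Hk1, Hk2 and Hk3 (hexokinases), Pkm (muscle pyruvate kinase), Ldha and Ldhb (muscle-type and heart-type lactate dehydrogenase subunits), and Slc16a1 and Slc16a3 (monocarboxylate transporters MCT1 and MCT4). All 10 were among the 31647 features of the count table and all 10 passed the filter on low counts, as did 12301 features in all. The animals were male wild-type C57BL/6J mice, aged 8 to 11 weeks at surgery, with no other genetic change. In 9 mice the left anterior descending (LAD) coronary vessel was tied off for good, and 5 days later the IZ of each heart was taken for the libraries used here. The 8 controls had the same operation without ligation, and their libraries came from LV tissue. The ligation was not reperfused, so the IZ stands for a closed vessel, and no remote myocardium of the ligated hearts was analysed here. Each library is 1 mouse, and the sequencing method (massive analysis of cDNA ends, MACE) counts molecules at the 3′ end of polyadenylated RNA.

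The sham libraries held 1820809 to 4257919 counts and the IZ libraries 1237675 to 4738307. In the sham hearts the labelled tissue matched its markers, and 10 cardiomyocyte genes such as Myh6 and Tnni3 summed to 85332 to 112200 CPM (counts relative to the library size, with TMM scaling factors). In 8 of the IZ libraries that sum was 3288 to 8510 CPM, and in IZ replicate 1 it was 37192 CPM. Counts from mitochondrially encoded genes were 22.9 to 32.4% of the sham libraries and 4.22% at the lowest in the IZ, with 19.5% in IZ replicate 1. That library stood between the groups, so results that rest on it are given with and without it. Of 10 macrophage markers, 9 were called higher and Cd163 lower, and their sum rose from 425 to 605 CPM in sham to 2255 CPM in IZ replicate 1 and 3870 to 5753 CPM in the other IZ libraries. Of the other lists, fibroblast markers (6 of 7) and all 4 tested neutrophil markers were higher. Sham counts per library of these 4 were 0 to 3 (Csf3r), 0 to 2 (Mmp8), 1 to 15 (S100a8) and 1 to 11 (S100a9). They passed the filter on low counts largely through their IZ counts, which favours higher calls, so these calls are a description only. The neutrophil marker Ly6g, with 0 counts in sham and at most 1 per IZ library, was not tested, nor were Cxcr2 and Retnlg. Endothelial markers were lower (3 of 6) or not called. Of the smooth muscle and pericyte markers 3 of 4 were lower, and Cnn1 was higher (mean 5.73 CPM in sham and 34.2 CPM in the IZ). Of 3 tested skeletal muscle markers 1 was higher and 2 lower, no adipocyte marker was tested, and none of 4 erythroid genes was called. Among all genes tested, 36.3% were called higher and 33.1% lower. In tissue samples such as these, fewer cells of a type and less RNA per cell cannot be told apart.

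All 10 genes differed between the groups at an adjusted p under 0.05 in edgeR, against 69.5% of the 12301 genes tested. Slc2a1, Hk3 and Slc16a3 were higher in the IZ (3 of 10, background 36.3%), and the other 7 were lower (background 33.1%). The values of the groups did not overlap for 7 of the 10 genes, against 33.1% of all genes tested. Hk3 and Slc16a3 lay above every sham library (2 of 10, background 16.6%), and Slc2a4, Hk2, Ldha, Ldhb and Slc16a1 lay below every sham library (5 of 10, background 16.5%). Both Hk3 and Slc16a3 held few sham counts (1 to 4 and 2 to 10 per library) and passed the filter through their IZ counts. Genes admitted that way could only come out higher, so their calls and lack of overlap are a description only. A difference of at least 2-fold was called for 6 of the 10 (Slc2a4, Hk2, Hk3, Ldhb, Slc16a1 and Slc16a3), against 37.6% of all genes tested. The same 3 higher and 7 lower calls were made without IZ replicate 1. The scale matters for the smallest differences: when libraries were scaled by total counts alone, the median log2 fold change of all genes moved from 0.05 to 1.14, and Hk1, Ldha and Pkm turned to 0.45, 0.50 and 0.69, which is above 0 but below that median. On that scale 6 of the 10 genes were called higher and 4 lower, against 74.8% and 12.4% of all genes tested.

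**Figure D1:**
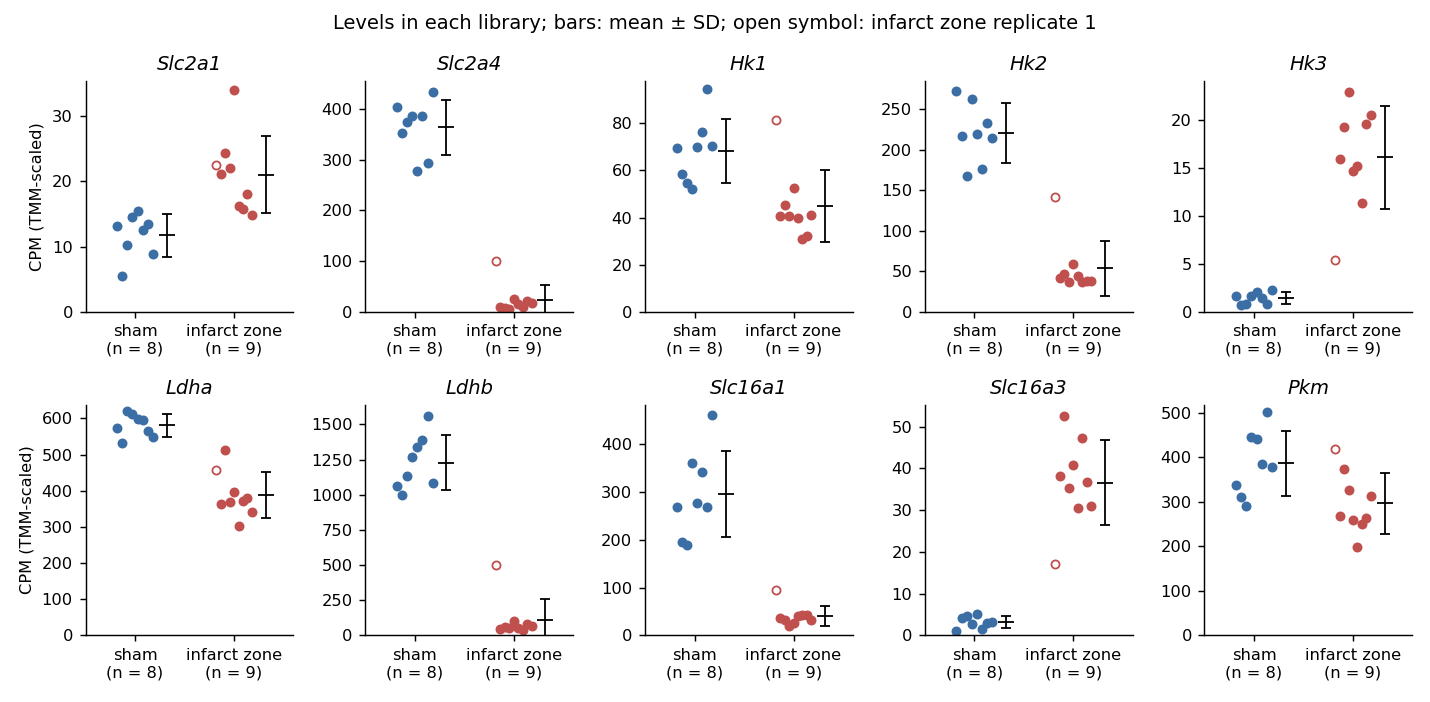
Level of each of the 10 genes in every library, in CPM on the TMM scale, with its own vertical axis starting at 0 in each panel. Points are libraries (8 sham, 9 IZ), bars give mean ± SD, and the open symbol is IZ replicate 1, which lies nearest to the sham values for Slc2a4, Hk2, Hk3, Ldhb, Slc16a1 and Slc16a3.

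Among the glucose transporters, Slc2a4 showed the largest fall of all 10 genes. Slc2a4 (ENSMUSG00000018566, chromosome 11, 69942539 to 69948188, minus strand, GRCm38) encodes the transporter that insulin moves to the surface of muscle and fat cells. In sham hearts its level was 277 CPM at the lowest, 380 at the median and 433 at the highest, and in the IZ it was 6.33, 15.3 and 99.7 CPM. The IZ values lay far below sham, with IZ replicate 1 as the highest. The means were 363 ± 53.4 CPM (SD, n = 8) and 23.4 ± 29.3 CPM (SD, n = 9), and the fitted difference was -3.98 ± 0.43 on the log2 scale (SE, 15.8-fold lower, edgeR adjusted p = 2.00e-08). Without IZ replicate 1 the IZ mean was 13.9 ± 6.93 CPM and the log2 difference -4.85.

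Slc2a1 (ENSMUSG00000028645, chromosome 4, 119108711 to 119137983, plus strand), the transporter for basal glucose uptake in many cell types, moved the other way at a much lower level. It was 5.43, 12.8 and 15.5 CPM in sham and 14.9, 21.2 and 34.0 CPM in the IZ (lowest, median, highest). In 8 of the 9 IZ libraries it was above every sham library, and IZ replicate 5 was the highest of all. The fitted difference was 0.82 ± 0.19 (1.76-fold higher, adjusted p = 6.05e-04), and 0.77 without IZ replicate 1. The rise of Slc2a1 did not offset the loss of Slc2a4: the summed level of both genes was 375 ± 52.3 CPM in sham and 44.4 ± 30.8 CPM in the IZ.

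MACE counts molecules at their 3′ end, so a count is not proportional to transcript length, and shares within a family can be read without dividing by length. A share still depends on how well each 3′ end is captured, which was not measured. Slc2a1 made up 3.23 ± 1.23% of the counts of both transporters in sham and 56.3 ± 18.4% in the IZ. Its share was 18.4% in IZ replicate 1 and 45.8 to 77.6% in the other 8 IZ libraries. The mean log2 ratio of Slc2a1 to Slc2a4 went from -4.97 ± 0.58 to 0.37 ± 1.197, a difference of 5.34, or 40.4-fold. The ratio was higher in 9 of 9 IZ libraries than in any sham library (exact permutation test over 24310 splits, two-sided p = 4.11e-05, the smallest it can give; adjusted over 4 ratios 5.48e-05). Without IZ replicate 1 the difference was 5.65.

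**Figure D2:**
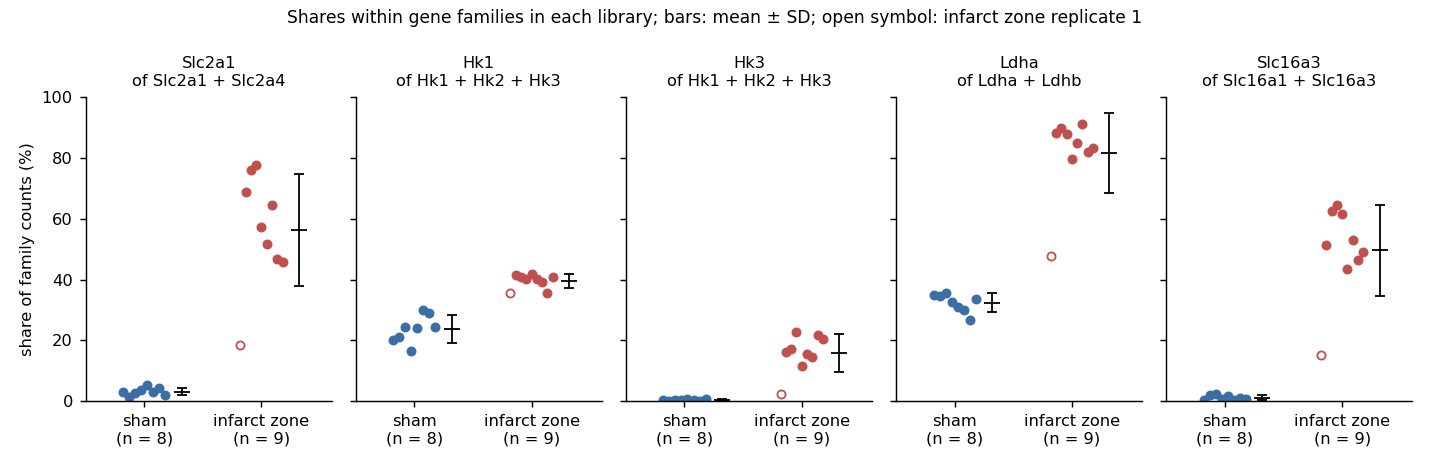
Share of the counts of its family, in percent, that each named gene took in every library. Points are libraries, bars mean ± SD and the open symbol IZ replicate 1, and Ldha went from 32.4% to 81.6% and Slc16a3 from 1.22% to 49.6% on average.

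The hexokinases, which commit glucose to the cell, changed from a profile led by Hk2 to one shared by 3 genes. Hk2 (ENSMUSG00000000628, chromosome 6, 82725025 to 82774454, minus strand), the form of insulin-sensitive tissues, was 168, 218 and 272 CPM in sham and 36.3, 41.3 and 142 CPM in the IZ. Every IZ library was below every sham library, and IZ replicate 1 was the one at 142 CPM. Hk2 fell by 2.04 ± 0.23 on the log2 scale (4.12-fold lower, adjusted p = 4.60e-08), and by 2.41 without IZ replicate 1. Hk1 (ENSMUSG00000037012, chromosome 10, 62268855 to 62379908, minus strand), the form most cells express, was 51.9, 69.7 and 94.7 CPM in sham and 30.9, 40.6 and 81.5 CPM in the IZ. The groups overlapped, since 7 of the 9 IZ libraries lay below all sham values. The difference of Hk1 was -0.61 ± 0.16 (adjusted p = 0.00225), -0.80 without IZ replicate 1, and 0.45 when scaled by total counts.

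Hk3 (ENSMUSG00000025877, chromosome 13, 55005985 to 55021385, minus strand), a form known from myeloid cells, was near the limit of detection in sham, with 1 to 4 counts per library. Its level there was 0.679, 1.56 and 2.22 CPM, and in the IZ it was 5.44, 16.0 and 23.0 CPM, from 15 to 117 counts. All 9 IZ libraries were above all sham libraries, with IZ replicate 1 the lowest. Hk3 was 3.48 ± 0.32 higher on the log2 scale (11.1-fold, adjusted p = 1.49e-09), and 3.56 higher without IZ replicate 1. The gene overlaps Unc5a on the opposite strand, which had 130 counts over all libraries against 571 for Hk3, and whether counting used the strand is not given in the sources used here.

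Of all hexokinase counts, Hk2 took 75.8 ± 4.48% in sham and 44.6 ± 7.25% in the IZ, Hk1 23.7 ± 4.48% and 39.5 ± 2.33%, and Hk3 0.488 ± 0.201% and 15.9 ± 6.22%. In IZ replicate 1, Hk3 took 2.38%, and in the other IZ libraries at least 11.7%. Hk1 therefore gained share while its own level did not rise on the TMM scale. The log2 ratio of Hk1 to Hk2 went from -1.69 ± 0.37 to -0.16 ± 0.27, a difference of 1.53 (2.89-fold, higher in 9 of 9 IZ libraries, exact permutation p = 4.11e-05, adjusted 5.48e-05). Without IZ replicate 1 this difference was 1.61. The summed level of the 3 hexokinases was 290 ± 39.4 CPM in sham and 115 ± 44.7 CPM in the IZ.

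Pkm (ENSMUSG00000032294, chromosome 9, 59656368 to 59679375, plus strand), which makes pyruvate in the last step of glycolysis, changed least among the 10 on the TMM scale. It was 289.8, 381 and 503 CPM in sham and 198, 268 and 418 CPM in the IZ. The groups overlapped, and 5 of 9 IZ libraries were below all sham libraries. The difference was -0.38 ± 0.15 (1.30-fold lower, edgeR adjusted p = 0.0283). This call was not stable: it was lost without sham replicate 7 or without any 1 of IZ replicates 2, 5, 6, 7 and 8, where the log2 difference was -0.30 to -0.34 and the adjusted p 0.0599 to 0.0701. It was also lost with no filter (-0.32, adjusted p = 0.112) and with upper quartile scaling (-0.27, adjusted p = 0.109). With total count scaling the sign turned (0.69).

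Pkm is known for 2 splice forms that use exclusive internal exons, PKM1 of adult muscle and PKM2 of most proliferating cells. Their ratio was not obtained: the counts are per gene and come from the 3′ end, and the annotated transcripts Pkm-201 and Pkm-202 end at 59679375 and 59679189, both beyond the exclusive exons. Of 4 factors known to act on this splice choice, Ptbp1 was 1.85 ± 0.15 higher (19.4 ± 5.55 to 70.1 ± 10.5 CPM) and Hnrnpa1 0.61 ± 0.15 higher on the log2 scale. Hnrnpa2b1 (-0.23, adjusted p = 0.0681, and 0.86 with total count scaling) and Srsf3 (0.24, adjusted p = 0.0896) did not pass the test.

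**Figure D3:**
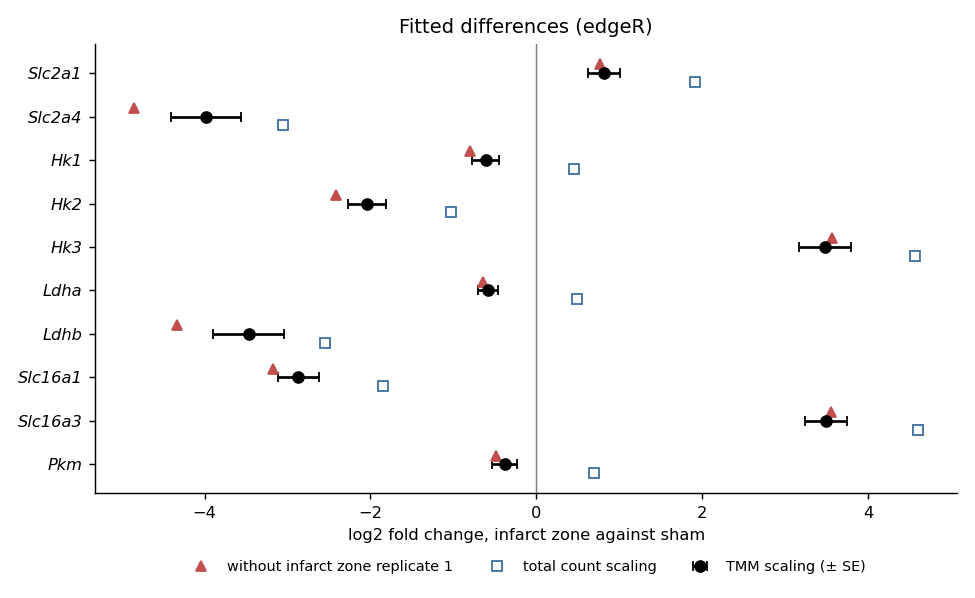
Fitted log2 fold change of each gene between IZ and sham (horizontal axis, edgeR), with SE for TMM scaling, without IZ replicate 1 and with total count scaling. Slc2a1, Hk3 and Slc16a3 lie to the right of 0 and Slc2a4, Hk2, Ldhb and Slc16a1 to the left under each of the 3, while Hk1, Ldha and Pkm cross 0 with total counts.

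Lactate dehydrogenase works as a tetramer of muscle-type and heart-type subunits, and the sham LV held more of the heart-type transcript. Ldhb (ENSMUSG00000030246, chromosome 6, 142490249 to 142507957, minus strand) was 1005, 1200 and 1562 CPM in sham and 37.4, 59.2 and 498 CPM in the IZ. IZ replicate 1 was the library at 498 CPM, and all IZ libraries were below all sham libraries. Ldhb differed by -3.47 ± 0.43 on the log2 scale (11.1-fold lower, adjusted p = 1.84e-07). Without IZ replicate 1 the IZ mean fell from 111 ± 146 to 63.1 ± 20.8 CPM and the log2 difference was -4.33.

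Ldha (ENSMUSG00000063229, chromosome 7, 46841475 to 46855627, plus strand) was 532, 585 and 622 CPM in sham and 302, 372 and 513 CPM in the IZ. The groups came close but did not overlap on the TMM scale. The difference was -0.58 ± 0.12 (adjusted p = 1.36e-04), and 0.50 with total count scaling. In 8 of the 9 IZ libraries Ldha had more counts than Ldhb, as in no sham library, and the summed level of both went from 1812 ± 205 to 499.8 ± 182 CPM.

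Ldha made up 32.4 ± 3.05% of the counts of both subunits in sham and 81.6 ± 13.2% in the IZ. Its share was 47.9% in IZ replicate 1 and 79.6 to 90.9% in the others. The log2 ratio of Ldha to Ldhb was -1.07 ± 0.21 in sham and 2.33 ± 1.02 in the IZ, a difference of 3.40, or 10.5-fold (higher in 9 of 9 IZ libraries, exact permutation p = 8.23e-05, also after adjustment over 4 ratios). Without IZ replicate 1 it was 3.70. The 3′ end of Ldhb has a near-identical copy, Gm5514, which matched 97.8% of 500 bases and held 1089 counts, or 5.26% of the 20717 of Ldhb, so reads may be split between them. Counting both as Ldhb gave a difference of 3.37.

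The proximal promoters of the 2 subunit genes and of the 2 lactate transporters are shown because the results on lactate turn on the ratio within these pairs. The windows come from RefSeq, build GRCm38.p6, with 250 bases before the start site and 50 from it on, 5′ to 3′ on the strand of the gene. Capitals mark the hypoxia response element core, written ACGTG or GCGTG, on either strand, and the E-box CACGTG, which contains ACGTG on both strands. The windows are chr7:46845554-46845853 (Ldha, plus strand, the first of 2 windows), chr6:142507908-142508207 (Ldhb, minus), chr3:104638414-104638713 (Slc16a1, plus) and chr11:120948817-120949116 (Slc16a3, plus).
Ldha: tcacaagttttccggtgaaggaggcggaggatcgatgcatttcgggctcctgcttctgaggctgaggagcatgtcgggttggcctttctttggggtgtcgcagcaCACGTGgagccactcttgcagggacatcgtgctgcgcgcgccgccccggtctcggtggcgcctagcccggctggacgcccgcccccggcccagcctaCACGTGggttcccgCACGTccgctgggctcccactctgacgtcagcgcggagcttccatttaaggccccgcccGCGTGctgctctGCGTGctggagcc
Ldhb: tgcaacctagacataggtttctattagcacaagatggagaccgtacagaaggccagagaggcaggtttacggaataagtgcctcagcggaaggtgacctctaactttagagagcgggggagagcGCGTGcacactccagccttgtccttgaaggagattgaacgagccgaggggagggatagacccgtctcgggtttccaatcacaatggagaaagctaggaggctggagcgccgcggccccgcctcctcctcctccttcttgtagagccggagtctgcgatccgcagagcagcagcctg
Slc16a1: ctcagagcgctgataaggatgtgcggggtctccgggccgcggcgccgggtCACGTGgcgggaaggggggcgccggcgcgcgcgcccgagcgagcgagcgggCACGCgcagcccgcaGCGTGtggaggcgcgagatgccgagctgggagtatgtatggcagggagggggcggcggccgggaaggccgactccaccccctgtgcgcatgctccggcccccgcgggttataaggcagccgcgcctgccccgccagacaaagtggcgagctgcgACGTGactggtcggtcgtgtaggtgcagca
Slc16a3: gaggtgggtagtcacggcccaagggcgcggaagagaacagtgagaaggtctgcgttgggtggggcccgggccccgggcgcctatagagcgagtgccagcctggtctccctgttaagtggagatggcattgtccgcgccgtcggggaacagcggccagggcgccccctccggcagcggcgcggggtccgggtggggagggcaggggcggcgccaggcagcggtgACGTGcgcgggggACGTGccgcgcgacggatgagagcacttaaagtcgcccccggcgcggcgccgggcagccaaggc

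In these windows ACGTG was found 5 times for Ldha, 0 times for Ldhb, 3 times for Slc16a1 and 2 times for Slc16a3, with both strands counted. GCGTG was found 2 times for Ldha, 1 time for Ldhb, 2 times for Slc16a1 and 0 times for Slc16a3. The E-box was present 2 times for Ldha and 1 time for Slc16a1. RefSeq windows were matched for 9 of the 10 genes, Slc2a4 being the other one. Either core was present in a window of 9 of these 9 genes and in 10 of their 12 windows, against 43.8% of 32851 windows of all genes. ACGTG was present for 8 of 9 genes (19.6% of all windows), GCGTG for 5 (32.4%), CACGTG for 2 (7.15%), the Sp1 motif GGGCGG for 6 (35.7%) and TATAAA for 1, Slc2a1 (13.6%). Counted by window, as the shares are, these motifs were present in 8, 6, 2, 6 and 1 of 12 windows in the same order. Hk1, Ldha and Pkm had 2 windows each, which gives them more chances of a match. The windows had 49.0 to 73.7% G and C against a median of 52.7% over all windows. The cores were present for genes that were higher and for genes that were lower, and a match of 5 letters is a description of the sequence only.

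Lactate transport showed the widest change of ratio. Slc16a1 (ENSMUSG00000032902, chromosome 3, 104638668 to 104658462, plus strand), which carries lactate in either direction and is the main form of heart muscle, was 189, 273 and 460 CPM in sham and 19.6, 36.5 and 95.3 CPM in the IZ. All IZ libraries were below all sham libraries, and IZ replicate 1 was the highest. Slc16a1 differed by -2.87 ± 0.25 on the log2 scale (7.31-fold lower, adjusted p = 7.24e-10), and by -3.18 without IZ replicate 1.

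Slc16a3 (ENSMUSG00000025161, chromosome 11, 120948480 to 120960868, plus strand), the exporter of glycolytic cells, was 1.09, 3.21 and 5.18 CPM in sham, from 2 to 10 counts. In the IZ it was 17.03, 36.7 and 52.7 CPM, from 47 to 320 counts. Every IZ library was above every sham library, with IZ replicate 1 again nearest to sham. The difference was 3.50 ± 0.25 (11.3-fold higher, adjusted p = 4.65e-11), and 3.56 without IZ replicate 1.

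Slc16a3 rose from 1.22 ± 0.785% of the counts of both transporters to 49.6 ± 14.9%, with 15.2% in IZ replicate 1 and 43.3 to 64.4% in the others. The log2 ratio of Slc16a3 to Slc16a1 went from -6.47 ± 0.94 to -0.07 ± 1.001, a difference of 6.40, or 84.3-fold (higher in 9 of 9 IZ libraries, exact permutation p = 4.11e-05, adjusted 5.48e-05). Without IZ replicate 1 it was 6.70, and the alternatives other than leaving out a library gave 5.51 to 6.69. The sham side of this ratio rests on 2 to 10 Slc16a3 counts per library. The size of the fold is therefore uncertain, and the test is a description only. The sum of both transporters was 298 ± 89.5 CPM in sham and 77.2 ± 16.9 CPM in the IZ.

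The cell makeup of the samples differed, so each gene was also set against the summed markers of cardiomyocytes and of macrophages in the same library, a ratio that does not depend on library scaling. Of the 20 ratios, 17 differed between the groups (exact permutation tests over 24310 splits, adjusted p under 0.05). Both marker sums themselves differed between the groups, and the share of all genes with such a difference was not computed. The count of 17 is therefore not a trait of these genes. Relative to cardiomyocyte markers, Ldhb did not differ by more than the spread (mean log2 ratio -6.35 ± 0.27 in sham and -6.44 ± 0.27 in the IZ, difference -0.09, exact permutation p = 0.510, adjusted 0.537). The log2 ratio of Slc2a4 to these markers differed by -0.60, with 8 of 9 IZ libraries below all sham libraries (exact permutation p = 1.23e-04). Hk2 and Slc16a1 fell less than the markers, with differences of 1.73 and 0.97. For the other 6 genes the log2 ratio to the cardiomyocyte markers rose by 3.27 (Hk1) to 7.37 (Slc16a3). Their levels stayed below the marker sum in every library, and Hk1, Ldha and Pkm were themselves lower in the IZ on the TMM scale.

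Relative to macrophage markers, Hk3 (0.11, exact permutation p = 0.613) and Slc16a3 (0.33, exact permutation p = 0.226) did not pass the test with 0.5 counts added. Neither value was stable: with 5 counts added they were -1.14 (exact permutation p = 4.11e-05) and -0.50 (exact permutation p = 0.0125), and with the median over the marker list 0.53 (exact permutation p = 0.0426) and 0.75 (exact permutation p = 1.23e-04), so no direction is given for them. For Slc2a1, the third gene that was higher in the IZ, the log2 ratio to these markers differed by -2.30, and 9 of 9 IZ libraries were below all sham libraries. The part of cell makeup in the changes of the 10 genes was not tested.

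**Figure D4:**
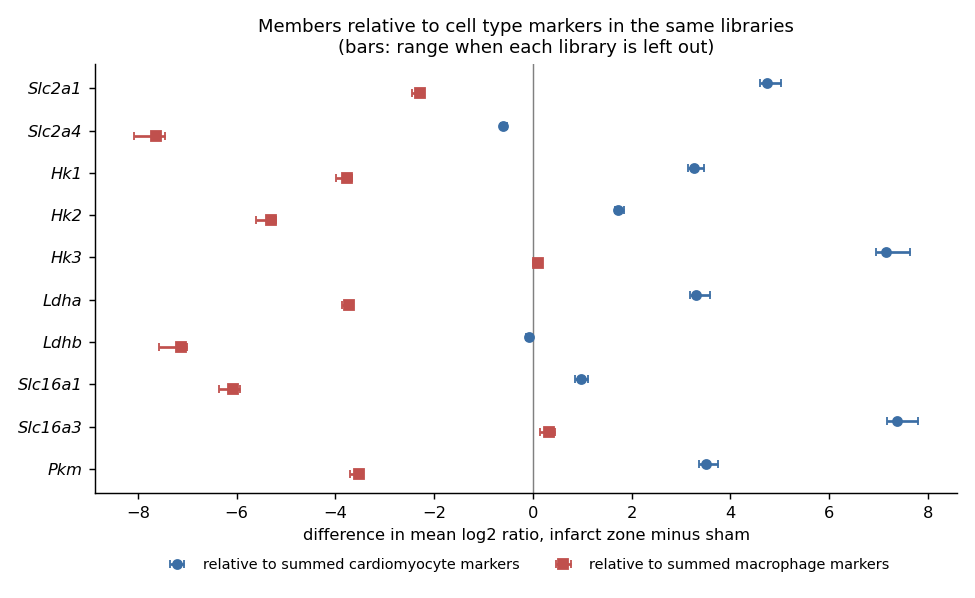
Difference between IZ and sham in the mean log2 ratio of each gene to the summed cardiomyocyte markers (circles) and to the summed macrophage markers (squares), and bars give the range when each library was left out in turn. Ldhb lies at -0.09 against cardiomyocyte markers, and Hk3 and Slc16a3 at 0.11 and 0.33 against macrophage markers with 0.5 counts added.

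The spread between libraries of a group was compared with that of 9327 other tested genes, as deviations of log2 CPM from the group means over 17 libraries, which share their depth and scaling. Slc2a4 was most like Pgam2, the muscle phosphoglycerate mutase (Pearson's r = 0.98, Spearman's rho = 0.95), and Ldhb most like Uqcrc2, a subunit of respiratory complex III (0.98 and 0.89). Slc16a1 was closest to Uqcrb of the same complex (0.92 and 0.87), Hk1 to Cyp2u1 (0.89 and 0.83) and Hk2 to Lpl, the lipoprotein lipase (0.93 and 0.81). Leaving out the 2 libraries farthest from the median brought r to 0.92, 0.88, 0.86, 0.82 and 0.60 for these 5 genes, IZ replicate 1 being one of the 2 each time. Pkm was most like Oaz1 (r = 0.95, rho = 0.95), Hk3 like Npc2, a cholesterol carrier of the lysosome (0.88 and 0.80), Slc16a3 like Bzw1 (0.89 and 0.79), Ldha like Hnrnpc (0.79 and 0.81) and Slc2a1 like Csnk2a1, a subunit of casein kinase 2 (0.83 and 0.68). Without the 2 farthest libraries r was 0.93 for Pkm, 0.70 for Hk3, 0.81 for Slc16a3, 0.69 for Ldha and 0.54 for Slc2a1. Each r is the highest of 9327 over 17 libraries, so the search itself favours high values.

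The other genes of glycolysis included muscle forms and widely expressed forms of the same enzyme that went opposite ways. In this list 5 of 17 tested genes were higher and 11 lower (36.3% and 33.1% of all genes tested), with a median log2 fold change of -0.89 against 0.05 for all genes. The muscle enolase Eno3 (1424 ± 181 to 132 ± 159 CPM, log2 -3.43) and the muscle phosphoglycerate mutase Pgam2 (864 ± 153 to 82.3 ± 100.1 CPM, log2 -3.40) were the lowest of those with a mean of at least 10 CPM. Their widely expressed counterparts Eno1 (27.3 ± 5.67 to 77.6 ± 20.3 CPM, log2 1.50) and Pgam1 (17.5 ± 4.35 to 52.6 ± 12.2 CPM, log2 1.57) were the highest under the same limit. Eno3 and Pgam2 stood at -4.21 and -4.20 without IZ replicate 1.

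Of the other glucose transporters, 3 of 10 had enough counts to be tested. Of these, 2 were higher and 1 lower, beside 36.3% and 33.1% of all genes tested. The 2 higher ones held at most 2 and 7 counts per sham library and passed the filter through their IZ counts. They could only come out higher, so their calls are a description only. Slc2a8 was lower (16.7 ± 4.66 to 11.2 ± 2.996 CPM, log2 -0.60, adjusted p = 0.00692), but 0.46 with total count scaling. Among partners of lactate transport and genes of pyruvate entry, 2 of 10 were higher and 7 lower (median -2.25), beside 36.3% and 33.1% of all genes tested. Bsg (basigin), the chaperone that brings both lactate transporters to the membrane, was 1297 ± 189 CPM in sham and 468 ± 96.4 CPM in the IZ (-1.47). Emb (embigin), a related partner, was higher (14.8 ± 5.13 to 40.7 ± 17.2 CPM, log2 1.48). The lowest were Ldhd, the mitochondrial D-lactate dehydrogenase (-3.99), and Pdk2, a kinase that restrains pyruvate dehydrogenase (-3.66, or -4.28 without IZ replicate 1).

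Of 19 tested genes of insulin signalling and GLUT4 traffic, 4 were higher and 10 lower, again beside 36.3% and 33.1% of all genes. The insulin receptor Insr (96.6 ± 16.7 to 23.6 ± 7.21 CPM, log2 -2.06) and Tbc1d4, the Akt substrate that holds GLUT4 inside the cell (-1.84), were the lowest. Tbc1d1 (0.87) and Stxbp3, a syntaxin-binding protein (0.82), were the highest. Txnip, an arrestin-like inhibitor of glucose uptake, was 587 ± 139 CPM in sham and 219 ± 67.0 CPM in the IZ (-1.43, adjusted p = 1.48e-07).

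Glycogen genes were mostly lower (2 of 13 higher, 11 lower, median -1.45), beside 36.3% and 33.1% of all genes tested. The muscle phosphorylase Pygm was at -3.07 (-4.05 without IZ replicate 1) and the brain form Pygb at -2.19. The liver form Pygl (4.65 ± 2.54 to 26.5 ± 7.90 CPM, log2 2.57) and Stbd1, a glycogen-binding protein (1.56), were the genes called higher. Pygl and Stbd1 held 3 to 12 and 5 to 17 counts per sham library. Both passed the filter largely through their IZ counts, so these calls are a description only. The pentose phosphate pathway, which branches off after hexokinase, went the other way. Of its 7 genes, 5 were higher and 1 lower (36.3% and 33.1% of all genes), with a median of 1.02. G6pdx, the first enzyme of the pathway, went from 3.93 ± 1.63 to 33.0 ± 9.07 CPM (3.05, adjusted p = 1.33e-10), and Pgd, the third, from 28.7 ± 4.68 to 108 ± 25.4 CPM (1.91). G6pdx held 3 to 17 counts per sham library and passed the filter largely through its IZ counts, so its call is a description only. Rpia was the lower one (-0.41, adjusted p = 0.0250, but 0.68 with total count scaling and a call lost under 9 other alternatives), and Pgls did not pass (0.20, adjusted p = 0.0812). Over these lists, including the splicing factors of Pkm, 22 of 73 tested genes were higher and 41 lower with TMM scaling (36.3% and 33.1% of all genes). With total count scaling 39 were higher and 23 lower (74.8% and 12.4% of all genes).

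**Figure D5:**
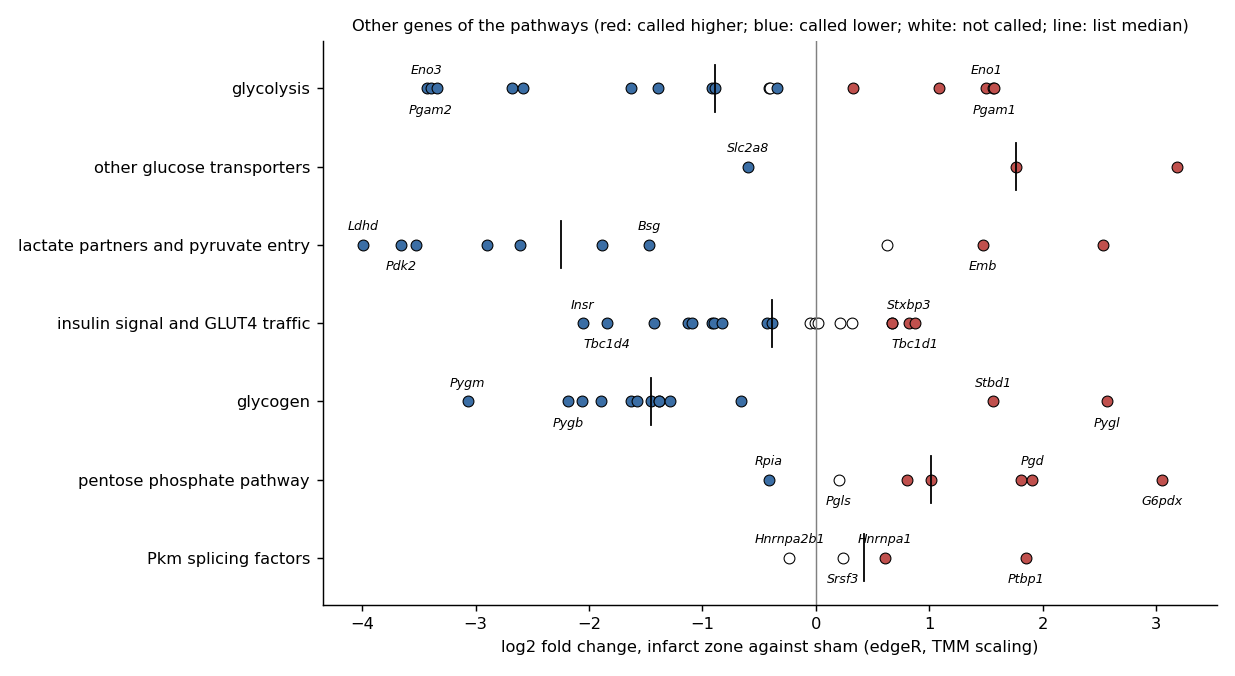
Log2 fold change between IZ and sham (horizontal axis, TMM scaling) of each tested gene of 7 lists, red for genes called higher, blue for lower and white for not called, with the list median as a line. The lowest medians are those of lactate partners and pyruvate entry (-2.25) and glycogen (-1.45), and the pentose phosphate pathway lies at 1.02.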

How the data were processed

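RNA of 17 mouse hearts (8 sham LV, 9 IZ, 1 mouse per library) was sequenced at the 3′ end with molecular identifiers for the removal of PCR duplicates. The authors trimmed reads with Cutadapt, mapped them to mm10 and counted them with HTSeq; the submitters' processing notes also name Bowtie2 and bcl2fastq. The deposited values are raw counts per gene, with no normalization. The annotation release, the strand setting and the treatment of multi-mapping reads are not given in the sources used here. Samples were grouped by their titles. Of 31647 features, 31554 matched an annotation of GRCm38 (GENCODE vM21), and 35 merged features held 0.0920 to 0.215% of the counts. All pairs of libraries differed by more than sampling noise (chi-square per degree of freedom 2.56 to 281).

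The test across genes was that of edgeR 4.0.16, run in R 4.3.3 (filterByExpr with a minimum count of 10, TMM factors, quasi-likelihood F-test without covariates, two-sided, Benjamini-Hochberg adjustment over all 12301 genes, threshold 0.05). All adjusted p-values of single genes come from this test. SE is that of the log2 fold change. Ratios used counts plus 0.5 and two-sided exact permutation tests over the 24310 possible splits (NumPy 2.4.6, SciPy 1.17.1), and were adjusted over the 4 ratios of paired genes and over the 20 ratios to markers separately. Intervals of counting error are not given, since the spread between mice is. Copies were sought with BLAST 2.17.0 (last 500 bases, at least 100 bases at 95% identity). The procedures were tested on simulated data.

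The 10 genes, the lists, the markers and the tests were chosen with earlier results of these data known. The text names the 10 genes, the 2 highest and 2 lowest tested genes of each list with a mean of at least 10 CPM, the partners or regulators Bsg, Emb, Txnip, Tbc1d4 and Ptbp1, the markers, and the gene most like each of the 10. Alternatives were DESeq2 size factors, upper quartile and total count scaling, no filter on counts, DESeq2 1.42.0 with its Wald test, a minimum mean of 50 counts, removal of mitochondrially encoded features, thinning to 1237675 counts, the replicate number as a block, other additions to counts, medians in place of means, and each library left out. Counting Gm5514 with Ldhb was added after seeing the data.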

Additional observations from a re-analysis of the deposited data

Results flagged for a closer look

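In 28 groups of library values of the 10 genes and the 4 ratios (8 sham or 9 IZ libraries each), 9 had 1 library set apart from the nearest other by more than Dixon's 95% critical value for the group size. That value would flag about 1 in 20 independent groups of normally distributed values. The groups here share genes and libraries, so no expected number is given. Of the 9, 8 were IZ replicate 1, which had 99.7 CPM of Slc2a4, 81.5 of Hk1, 142 of Hk2, 498 of Ldhb and 95.3 of Slc16a1, each the highest of the IZ. Its log2 ratios were -0.124 for Ldha to Ldhb, -0.796 for Hk1 to Hk2 and -2.47 for Slc16a3 to Slc16a1, each the lowest of the IZ and above every sham library. The same library had 37192 CPM of cardiomyocyte markers, against at most 8510 in the other IZ libraries, 2255 CPM of macrophage markers, against at least 3870, and 19.5% mitochondrially encoded counts. The part of these measures in its values was not tested. The remaining value was that of IZ replicate 5, with 34.0 CPM of Slc2a1.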

How the results depend on the processing

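The 4 ratios of paired genes kept their direction and passed the test under all alternatives run, with 5.16 to 5.65 (Slc2a1 to Slc2a4), 3.28 to 3.70 (Ldha to Ldhb), 1.44 to 1.61 (Hk1 to Hk2) and 6.23 to 6.70 (Slc16a3 to Slc16a1) when each library was left out. Under the other alternatives they were 4.99 to 5.71, 3.36 to 3.50, 1.46 to 1.54 and 5.51 to 6.69 in the same order. With total counts alone, 6 of the 10 genes were called higher and 4 lower, and 39 and 23 of 73 pathway genes, beside 74.8% and 12.4% of all genes tested. The signs of Hk1 (0.45), Ldha (0.50), Pkm (0.69), Slc2a8 (0.46), Rpia (0.68) and Hnrnpa2b1 (0.86) then turned; all 6 values lie below 1.14, the median of all genes on that scale. With a minimum mean of 50 counts Hk3 was not tested. Leaving out each library gave 3 higher and 6 to 7 lower among the 10 genes, Pkm being the gene that was lost. The call of Rpia was lost with the replicate block, thinning, no filter, upper quartile scaling and without IZ replicate 2, 3, 5 or 9 or sham replicate 3 (edgeR adjusted p 0.0502 to 0.139). Hnrnpa2b1, Pgls and Srsf3 passed the test or turned under 4, 6 and 3 of 26 alternatives.

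Libraries of the same number did not vary together (correlations -0.25 to 0.15 over 8 numbers), so the replicate number does not pair the mice. With the replicate block, where IZ replicate 9 had no partner, 3 of the 10 genes were higher and 6 lower, Pkm having -0.41 (edgeR adjusted p = 0.0514), and the pathway lists held 21 higher and 40 lower genes. The ratios of pairs under the block were 5.41, 3.40, 1.50 and 6.40 in the order above (exact sign flips, p = 0.00781, the smallest they can give).

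Of the ratios to markers, Ldhb to cardiomyocyte markers was 0.033 with the median over the list in place of the sum. Hk3 to macrophage markers was -1.14 with 5 counts added (exact permutation p = 4.11e-05), -0.18 as a difference in medians, 0.53 with the median over the list (exact permutation p = 0.0426), and -0.0022 to 0.19 when each library was left out, the lowest without sham replicate 3. Slc16a3 to macrophage markers was -0.50 with 5 counts added (exact permutation p = 0.0125) and 0.75 with the median over the list (exact permutation p = 1.23e-04), both past 0.05 and in opposite directions. The cause of these shifts was not tested beyond the construction of each alternative. Depth limits the statements on Hk3 and Slc16a3 in sham, where libraries held 1 to 4 and 2 to 10 counts. The limit includes the ratio of Slc16a3 to Slc16a1.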
